A study of Homo sapiens with 12 samples.

Results

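Nuclear-encoded respiratory chain and ATP synthase genes were examined in chromatin accessibility data from HEK293T cells, a human embryonic kidney line. Members were taken by symbol and annotation only, as the non-pseudogene entries for subunits of complex I (NDUFA, NDUFB, NDUFC, NDUFS and NDUFV genes), complex III (UQCR genes), complex IV (COX4 to COX8 genes) and the ATP synthase (ATP5 genes), with antisense entries left out. This gave 85 of the 52889 gene entries, of which 38 belonged to complex I, 9 to complex III, 17 to complex IV and 21 to the ATP synthase. After a filter on low values, 79 of the 85 genes were tested.

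Oxidative phosphorylation takes place in the inner mitochondrial membrane. Complexes I, III and IV pass electrons from NADH to oxygen and pump protons, and the ATP synthase (complex V) uses the proton gradient to make ATP. Most subunits are encoded in the nucleus and imported, while a small set of core subunits is encoded by mitochondrial DNA, so that both genomes contribute to each of these complexes. The promoters of the nuclear genes are known for binding sites of NRF1, of the ETS factor GABP and of YY1.

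ATAC-Seq uses the Tn5 transposase, which inserts sequencing adapters into open chromatin of isolated nuclei, and the reads were counted per gene. The 12 samples formed 4 groups with 3 biological replicates each. Mock cells carried the empty vector pSBTet-GP, and d0 cells expressed MLL-AF4 constitutively from a Sleeping Beauty vector in a puromycin-selected pool. The d3 cells carried constitutive MLL-AF4 and, by transient transfection, AF4-MLL, which was induced with 1 µg/ml doxycycline for 48 h. The d28 cells have the genotype label of d0 and were, per the paper, grown on after AF4-MLL had been switched off at day 3. The label text on induction with doxycycline is the same for all 12 samples, and the harvest day of Mock cells is not given. MLL-AF4 and AF4-MLL are the reciprocal fusion genes of the t(4;11) translocation of acute leukemia. The comparisons asked whether accessibility of the 85 genes differed between these states, and all comparisons against Mock share the same 3 Mock samples.

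Total counts per sample lay between 353430 and 3539937, and ran with the groups. They were 353430 to 501324 in Mock, 648466 to 715327 in d0, 930067 to 1186209 in d3 and 1058754 to 3539937 in d28. Between 26.4% and 68.5% of the counts fell on genes of mitochondrial DNA (MT- genes), with 26.4% to 27.0% in Mock, 42.0% to 45.6% in d0, 32.8% to 44.1% in d3 and 63.6% to 68.5% in d28. These genes were left out before scaling, and 257857 to 1116385 counts per sample remained. Of these, Mock samples had 257857 to 368776 and d28 samples 376209 to 1116385. The TMM scaling factors were 1.08 to 1.14 in Mock and 0.85 to 0.93 in d28. Depth and library composition therefore differed between Mock and the other groups, and their bearing on the comparisons was not tested. Values below are normalized counts, which are counts scaled to the mean effective library of the 12 samples. KMT2A (MLL), whose cDNA is part of both transgenes, had 26.4 to 29.5 normalized counts in Mock, 30.5 to 43.7 in d0, 56.3 to 67.6 in d3 and 67.8 to 90.8 in d28, and transgene DNA and the cells' own gene cannot be told apart in these counts. The other transgene source, AFF1 (AF4), had 39.9 to 56.5 in Mock and 54.6 to 77.5 in the other samples. Per kb of gene, the kidney genes PAX2 (0.173) and PAX8 (0.160) were below the blood gene SPI1 (0.955) and the muscle gene MYOD1 (5.93), so the markers read did not check the cell line label. In 1 of the 3 Mock samples, the muscle gene MYH7 stood at 100.4 normalized counts against 3.42 to 11.3 in the other 11 samples.

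The results below turn on a pair of genes, NDUFB10 and ATP5PB. NDUFB10, an accessory subunit of the membrane arm of complex I, lies on chromosome 16 (1959538 to 1961975, GRCh38.p14, plus strand). ATP5PB, the b subunit of the peripheral stalk that holds the ATP synthase head in place, lies on chromosome 1 (111449464 to 111462773, plus strand). The 250 bases before each annotated start are shown because these are the promoters of the genes whose counts differed between groups, with sequences and positions from RefSeq (chr16:1959288-1959537 and chr1:111449214-111449463, both on the plus strand).
NDUFB10: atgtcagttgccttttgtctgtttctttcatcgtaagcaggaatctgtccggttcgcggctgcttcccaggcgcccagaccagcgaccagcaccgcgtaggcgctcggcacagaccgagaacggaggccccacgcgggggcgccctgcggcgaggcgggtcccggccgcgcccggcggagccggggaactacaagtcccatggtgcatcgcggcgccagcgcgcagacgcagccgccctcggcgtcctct
ATP5PB: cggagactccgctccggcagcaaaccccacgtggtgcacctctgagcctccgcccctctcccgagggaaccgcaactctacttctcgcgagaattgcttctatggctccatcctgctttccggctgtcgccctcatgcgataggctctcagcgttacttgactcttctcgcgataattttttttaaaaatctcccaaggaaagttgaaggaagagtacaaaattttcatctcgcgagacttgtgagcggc
Matches to the 3 motif cores would be in capitals, and neither of these stretches holds a whole one. The letters searched on both strands were GCGCATGC (NRF1), CCGGAAGT (ETS factors such as GABP) and AAGATGGC (YY1). In ATP5PB the YY1 core stands in reverse complement across the start itself, from 2 bases before it (chr1:111449452-111449479, core in capitals).
ATP5PB, start: cttgtgagcgGCCATCTTggtcctgccc
RefSeq promoter windows, from 250 bases before to 50 after the start, were found for 68 of the 85 genes. The NRF1 core was in 11 of them (16.2%) and in 894 of all 27305 windows (3.27%). The ETS core was in 9 (13.2%, against 4.44% of all windows) and the YY1 core in 10 (14.7%, against 3.03%). At least 1 of the 3 cores was in 26 windows (38.2%), and in 9.94% of all windows. These are matches of letters in these windows, and whether a factor was bound there was not measured.

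Accessibility counts of single members were low, and the genes differed widely in level. The median of the 85 mean normalized counts was 18.1, the highest was 85.9 for NDUFB2, an accessory subunit of complex I, and 37 genes reached 20 or more. Besides NDUFB2, the highest counts were those of ATP5MC2, ATP5PF, ATP5PB and NDUFC1. NDUFC1 overlaps NAA15, and ATP5PF overlaps GABPA, which encodes the DNA-binding subunit of GABP, and counts of such overlapping genes are uncertain, which holds for 21 of the 85 genes.

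Per kb of gene span, the scale on which genes can be compared, NDUFB10 stood highest with 21.8 normalized counts, followed by UQCRQ of complex III (18.9) and ATP5IF1, the inhibitor of the ATP synthase (16.7). For comparison, the widely used genes ACTB, GAPDH and EEF1A1 had 17.9, 20.5 and 25.3 normalized counts per kb. The lowest values were those of COX7B2 (0.000856), ATP5MF-PTCD1 (0.0393), NDUFS4 (0.0895) and NDUFA10 (0.0952), which are long genes of 174.4, 49.4, 122.7 and 132.9 kb. The interval counted for a gene is not stated, so that values per kb of span are approximate. A low value of a long gene therefore need not mean less open chromatin.

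Replicates differed by little more than counting error. The variance among the 3 replicates of a group, relative to that of counting alone, had a median of 1.01 over the 79 members and of 1.01 over all 27543 tested genes. With counts this low, counting error alone is wide: for d3 against Mock the median standard error of the log2 fold change was 0.19 for the 15 members at 40 or more normalized counts, 0.25 for the 22 members at 20 to 40, 0.34 for the 31 members at 10 to 20 and 0.78 for the 11 members below 10.

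NDUFB10 was the member with the clearest difference between groups. Its 3 Mock samples had 28.1, 41.4 and 30.8 normalized counts, and its d0 samples had 51.0, 41.5 and 45.7. The d3 samples had 76.1, 81.5 and 64.4, and the d28 samples had 50.7, 53.5 and 72.1. All 9 samples with MLL-AF4 were above all 3 Mock samples, by a narrow gap in d0 (41.5 against 41.4), and all d3 samples were above all d0 samples. The raw counts behind these values were 18 to 33 in Mock, 30 to 42 in d0, 80 to 96 in d3 and 50 to 95 in d28. In edgeR's quasi-likelihood test, with Benjamini-Hochberg adjustment over all tested genes, NDUFB10 rose at d3 against Mock by a log2 fold change of 1.12 (SE 0.20, 95% interval 0.73 to 1.50, adjusted p = 1.06e-05). It also rose at d28 against Mock (0.72, SE 0.20, adjusted p = 0.0392) and at d3 against d0 (0.67, SE 0.18, adjusted p = 0.0186). At d0 against Mock its log2 fold change was 0.44 with an interval from -0.0090 to 0.90 (adjusted p = 0.536), and from d3 to d28 it was -0.40 (adjusted p = 0.342). In such bulk samples, more cells with open chromatin at a gene and wider opening in each cell cannot be told apart.

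**Figure D1:**
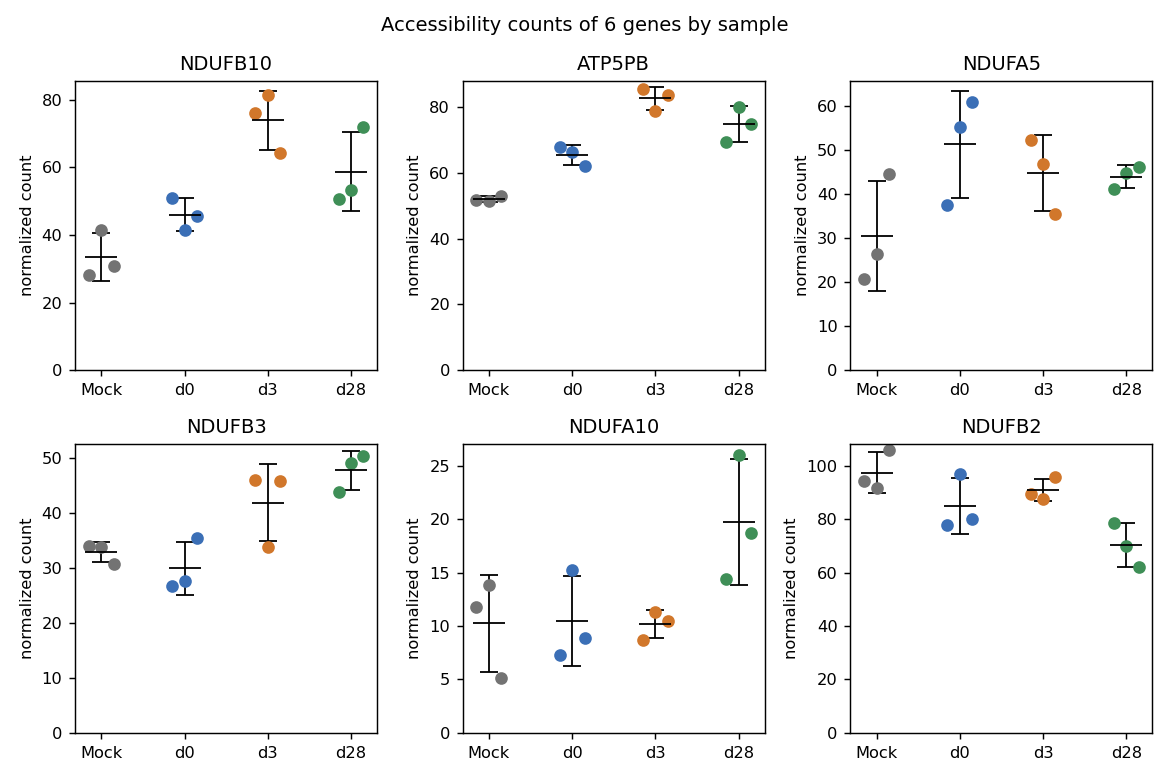
Normalized ATAC-Seq counts (y axis, scaled counts per gene) of 6 complex I and ATP synthase genes in the Mock, d0, d3 and d28 groups (x axis). Dots are the 3 samples of a group in replicate order, the wide bar is their mean and the error bar is the SD. NDUFB10 and ATP5PB are highest at d3, and every d3 and d28 dot lies above every Mock dot in both.

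The rise of NDUFB10 at d3 against Mock passed the threshold under each alternative scaling, filter and test, with log2 fold changes from 0.95 to 1.12, and whichever of the 12 samples was left out (1.00 to 1.33). The other calls were less firm. The call at d28 against Mock was lost with library sizes only (0.39, adjusted p = 0.312), with RLE factors (adjusted p = 0.0939), in DESeq2 (adjusted p = 0.421) and with no filter on low counts (adjusted p = 0.0758), and also without Mock replicate 1 (adjusted p = 0.239), Mock replicate 3 (0.175) or d28 replicate 1, 2 or 3 (0.0617, 0.0665 and 0.151). The call at d3 against d0 was lost with library sizes only (0.0738), RLE factors (0.0837) and DESeq2 (0.568), and without d0 replicate 1, 2 or 3 (0.051, 0.136 and 0.0977) or d3 replicate 1 or 2 (0.0617 and 0.103).

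ATP5PB was the only other member past the threshold in the main test. Its Mock samples had 51.7, 51.5 and 53.0 normalized counts and its d0 samples 68.0, 66.4 and 62.2. The d3 samples had 85.6, 78.9 and 83.7, and the d28 samples had 69.4, 80.2 and 75.0. No d0, d3 or d28 sample overlapped Mock, whose 3 samples were close together (52.1 ± 0.844, SD, n = 3). Over the 4 groups, the variance among replicates of ATP5PB was 0.23 of that of counting alone, where the median of the members was 1.01. Its replicates thus lay closer together than counting error, so this SD understates the uncertainty. ATP5PB rose at d3 against Mock by a log2 fold change of 0.67 (SE 0.17, 95% interval 0.33 to 1.01, edgeR adjusted p = 0.0151). The log2 fold change was 0.33 at d0 (adjusted p = 0.621) and 0.52 at d28 (adjusted p = 0.124), which did not pass. The d3 call was lost with library sizes only (0.51, adjusted p = 0.169), RLE factors (adjusted p = 0.109) and DESeq2 (adjusted p = 0.499), and without Mock replicate 1, 2 or 3 (0.0752, 0.134 and 0.0555) or d3 replicate 1 (0.0541). The share of MT- counts was also higher in d3 than in Mock. With those genes kept in the scaling, the adjusted p of ATP5PB was 0.0139 and that of NDUFB10 was 7.54e-06. Keeping them hardly moved the scaling (median log2 fold change of the members at d3 against Mock 0.177, against 0.180 in the main test). The bearing of the MT- share on these calls was therefore not tested.

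In the test for any difference among the 4 groups, NDUFB10 (adjusted p = 1.72e-05) and ATP5PB (adjusted p = 0.039) passed, 2 of 79 members, where 3.3% of all tested genes did. In that test the call of ATP5PB was lost in DESeq2 (adjusted p = 0.66) and with no filter on low counts (0.0749), among other settings. At an unadjusted p below 0.05, 14 of the 79 members passed against 16.3% of all tested genes. The next members by p were NDUFA10, NDUFB3 and NDUFA5, each an accessory subunit of complex I, with adjusted p-values of 0.0898, 0.117 and 0.128.

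NDUFA5, NDUFB3 and NDUFA10 each took a different course over the groups. NDUFA5 had 20.7, 26.4 and 44.5 normalized counts in Mock, 37.7, 55.3 and 60.9 in d0, 52.3, 46.8 and 35.4 in d3 and 41.1, 44.8 and 46.1 in d28, so that Mock replicate 3 overlapped the other groups. NDUFB3 lay between 26.7 and 35.5 in Mock and d0 and between 43.8 and 50.5 in d28, while its d3 samples (46.0, 33.8 and 45.9) overlapped both ranges. NDUFA10 lay between 5.13 and 15.2 in Mock, d0 and d3 and at 14.4, 26.0 and 18.7 in d28, where 1 d28 sample overlapped the range of the others. None of these 3 genes passed the adjusted threshold.

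At d0 against Mock, none of the 79 members passed the adjusted threshold in edgeR or DESeq2, where 0.428% of all tested genes passed in edgeR. At an unadjusted p below 0.05 there were 10 members (12.7%, against 9.54% of all tested genes), 5 higher and 5 lower, beside 1468 higher and 1159 lower over all genes. The members with the largest values on the higher side, among those at 20 or more normalized counts, were the complex I genes NDUFA5 (log2 fold change 0.78, SE 0.23, adjusted p = 0.115), NDUFA1 (0.78), NDUFA4 (0.59) and NDUFB6 (0.54) and UQCRQ of complex III (0.49). NDUFA4 carries a complex I name but is now assigned to complex IV. On the lower side were NDUFS8, a core subunit of complex I with iron-sulfur clusters (-0.79), NDUFA11 (-0.68), the c-ring gene ATP5MC3 (-0.55), NDUFV1, the core subunit that binds NADH (-0.50), and COX5A of complex IV (-0.37). NDUFA5 passed the threshold when Mock replicate 3 (adjusted p = 0.0246) or d0 replicate 1 (0.049) was left out. The value of ATP5MC3 rests on Mock replicate 1, which had 50.2 normalized counts where replicates 2 and 3 had 20.1 and 20.5, and was 0.021 without it.

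The samples of NDUFV1 were lower than Mock in all later groups. Its Mock samples had 39.9, 42.7 and 42.8 normalized counts, against 26.7, 29.0 and 33.0 in d0, 25.4, 28.6 and 29.8 in d3 and 35.2, 26.0 and 33.2 in d28. The groups did not overlap with Mock, but the log2 fold changes of -0.50, -0.58 (SE 0.23) and -0.40 had adjusted p-values of 0.499, 0.209 and 0.429. NDUFA1 showed the opposite order. It had 17.7, 18.8 and 20.5 normalized counts in Mock and 22.5 to 37.7 in the other 9 samples, with adjusted p-values of 0.307, 0.529 and 0.555.

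At d3 against Mock, 2 of 79 members passed the adjusted threshold (NDUFB10 and ATP5PB, both higher), where 1.59% of all tested genes passed. At an unadjusted p below 0.05 there were 12 members (15.2%, against 12.1% of all tested genes), 10 higher and 2 lower, beside 2418 higher and 911 lower over all genes. Besides NDUFB10 and ATP5PB, the largest higher values among the members at 20 or more normalized counts were NDUFA4 (0.74, SE 0.29), the c-ring gene ATP5MC1 (0.70, SE 0.28) and UQCRC2, a core protein of complex III (0.68, SE 0.24, adjusted p = 0.159). The lowest were NDUFV1 (-0.58), NDUFB4 (-0.35), COX5A (-0.35), NDUFS8 (-0.22) and ATP5MC3 (-0.18, and 0.39 without Mock replicate 1).

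At d28 against Mock, NDUFB10 was the 1 member past the adjusted threshold, where 1.39% of all tested genes passed. At an unadjusted p below 0.05 there were 12 members (15.2%, against 12.9% of all tested genes), 10 higher and 2 lower, beside 2364 higher and 1182 lower over all genes. NDUFB6, an accessory complex I subunit, had the largest value among the members at 20 or more normalized counts (0.91, SE 0.30, adjusted p = 0.105), with 12.6 to 16.2 normalized counts in Mock and 23.1 to 31.1 in d28. NDUFB10, NDUFA5 (0.55), ATP5PB (0.52) and NDUFB3 (0.51) followed. The lowest values were those of NDUFB4 (-0.48), NDUFB2 (-0.42, SE 0.15), NDUFV1 (-0.40), NDUFS3 (-0.27, and 0.019 without d28 replicate 2) and COX5A (-0.19). NDUFB2 had 94.5, 91.7 and 106 normalized counts in Mock and 78.5, 70.1 and 62.0 in d28, with no overlap and an adjusted p of 0.162. With library sizes only, NDUFB2 (-0.76, adjusted p = 0.000217), NDUFB4 (-0.81, adjusted p = 0.0443) and NDUFV1 (-0.74, adjusted p = 0.0257) fell past the threshold, as did ATP5MC2, while NDUFB10 did not pass. Under that scaling the median of all genes was -0.25.

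In the comparisons among the later groups, NDUFB10 was the 1 member called at d3 against d0, where 1.23% of all tested genes were called, and 0 members were called at d28 against d0 (1.18% of all) or d28 against d3 (0.218%) in edgeR and in DESeq2. At an unadjusted p below 0.05, 14 members passed at d3 against d0, where 12.1% of all tested genes passed. All 14 were higher, and 2350 of the 3326 genes that passed were also higher. At d28 against d0, 12 members passed (9 higher), beside 12.8% of all genes (2258 of 3522 higher). At d28 against d3, 7 members passed (6 lower), beside 8.75% of all genes (1344 of 2411 lower). NDUFS8 and NDUFA11, which were on the lower side at d0, had log2 fold changes of 0.57 and 0.69 at d3 against d0. Both were within the unadjusted group only, with adjusted p-values of 0.334 and 0.0897.

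Members whose samples did not overlap with Mock were counted as well, beside the share of all tested genes. At d0, 8 of 79 members (10.1%) had all 3 samples above all Mock samples, against 7.72% of all tested genes, and 3 (3.8%) had all below, against 6.68%. At d3 there were 16 above (20.3%, against 12.5%) and 2 below (2.53%, against 4.95%). At d28 there were 14 above (17.7%, against 11.6%) and 6 below (7.59%, against 6.28%). NDUFA1, NDUFB10, ATP5PB and ATP5S were above Mock at all 3 time points, and NDUFV1 was below at all 3. ATP5MGL, an entry with 18 counts in total, had 0 counts in each Mock sample and 1 to 3 counts in the others, at or under a floor of 3 counts, so no fold is given. It passed the filter on low values only through d0 and d28 (means of 2.58 and 2.28 normalized counts), so its place above Mock was set by the filter, although it is 1 of the members counted as higher at each day and of those at an unadjusted p below 0.05 at d0 and d28.

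As a group, the members moved by little, and the size depended on the scaling. Against Mock, the median log2 fold change of the 79 members was -0.050 (d0), 0.18 (d3) and 0.10 (d28), beside 0.015, 0.11 and 0.10 for all tested genes. For d3 against d0 it was 0.22 beside 0.082, for d28 against d0 0.10 beside 0.087, and for d28 against d3 -0.082 beside -0.0028. The SD of the members' median log2 count between replicates was 0.0851. RLE factors lowered the median of the members at d3 against Mock to 0.050 and that of all genes to -0.030, and library sizes only turned the members' median at d28 against Mock to -0.23 and that of all genes to -0.25. Relative to all genes the members' median at d3 against Mock was between 0.073 and 0.088 higher over the TMM, RLE, library size and DESeq2 scalings, and at d3 against d0 it was between 0.13 and 0.14 higher. A change of scaling shifts members and all genes almost alike, so these narrow ranges were largely set in advance and are no support. Samples left out moved the medians more. Without Mock replicate 1, the members stood at 0.27 at d3 against Mock, beside 0.13 for all genes. Without d0 replicate 2, they stood at 0.31 at d3 against d0, beside 0.093. In each comparison the other 11 samples left out moved the members' median by less than the SD above.

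**Figure D2:**
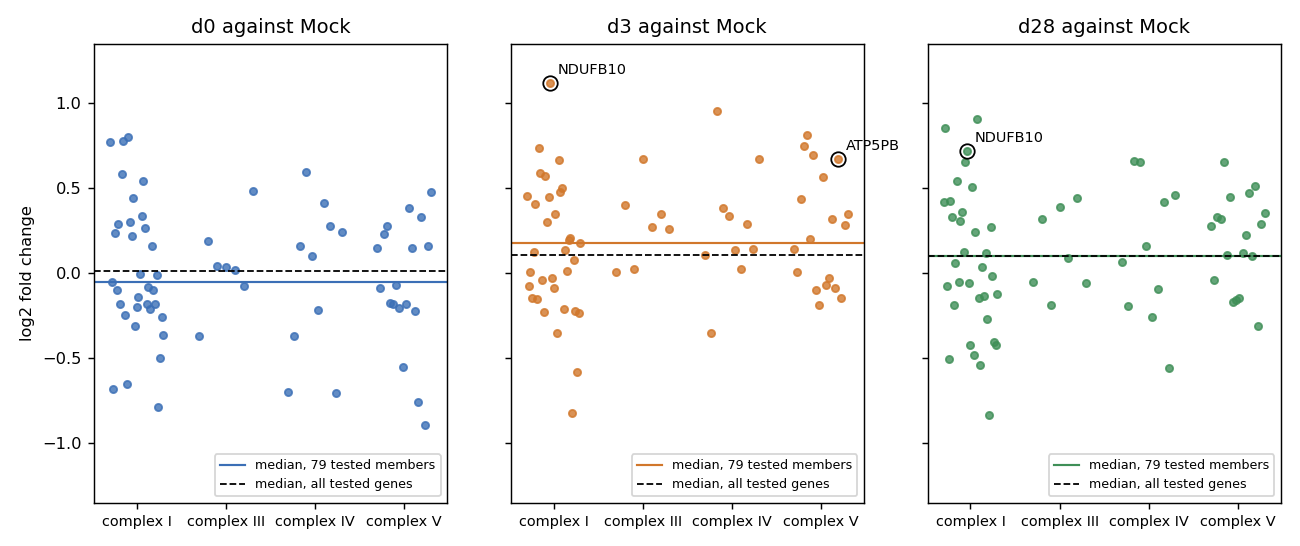
Log2 fold changes (y axis) of the 68 members at 10 or more normalized counts, by complex (x axis), for d0, d3 and d28 against Mock. Each dot is a gene, the coloured line is the median of the 79 tested members, the dashed line is the median of all tested genes, and circles mark the genes past the adjusted threshold. The dots spread to both sides of 0 in each complex, except in complex III at d3, where all plotted genes lie above 0. The medians of the 79 tested members are -0.050, 0.18 and 0.10.

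By complex, the median at d3 against Mock was 0.13 for the 38 genes of complex I, 0.27 for the 8 tested genes of complex III, 0.14 for the 12 of complex IV and 0.29 for the 21 of the ATP synthase. At d28 against Mock these medians were 0.061, 0.019, 0.022 and 0.23, and at d0 against Mock they were -0.088, 0.031, 0.038 and -0.070. The 7 core subunits of complex I that the nucleus encodes had medians of -0.21 (d0), 0.014 (d3) and -0.14 (d28). Within the ATP synthase, the 5 genes of the F1 head had medians of 0.15, 0.44 and 0.32, the 4 genes of the peripheral stalk -0.24, 0.18 and 0.031, and the 3 c-ring genes -0.21, -0.098 and -0.16. Differences between complexes were not tested.

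How far the data limit the size of a change can be read from the 95% intervals of edgeR. At d3 against Mock, the interval lay within a 2-fold change in either direction for 47 of 79 members and for 28 of the 37 members at 20 or more normalized counts. At d0 and d28 against Mock this held for 46 and 49 of 79 members. For the remaining genes a 2-fold change in at least 1 direction was within the interval.

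The share of all counts outside MT- genes that fell on the 85 genes was 0.403% to 0.436% in Mock, 0.384% to 0.407% in d0, 0.401% to 0.435% in d3 and 0.343% to 0.364% in d28. The d28 samples lay below all others on this scale. Nuclear copies of mitochondrial genes held 3.22% to 3.43% of these counts in Mock and 16.0% to 19.8% in d28. With the copies left out, the share was 0.416% to 0.452% in Mock, 0.414% to 0.441% in d0, 0.432% to 0.463% in d3 and 0.428% to 0.434% in d28, and the groups overlapped. The Wilson interval of a single sample was 0.385% to 0.434% in Mock replicate 3, the sample with the fewest counts, and covers counting error only.

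**Figure D3:**
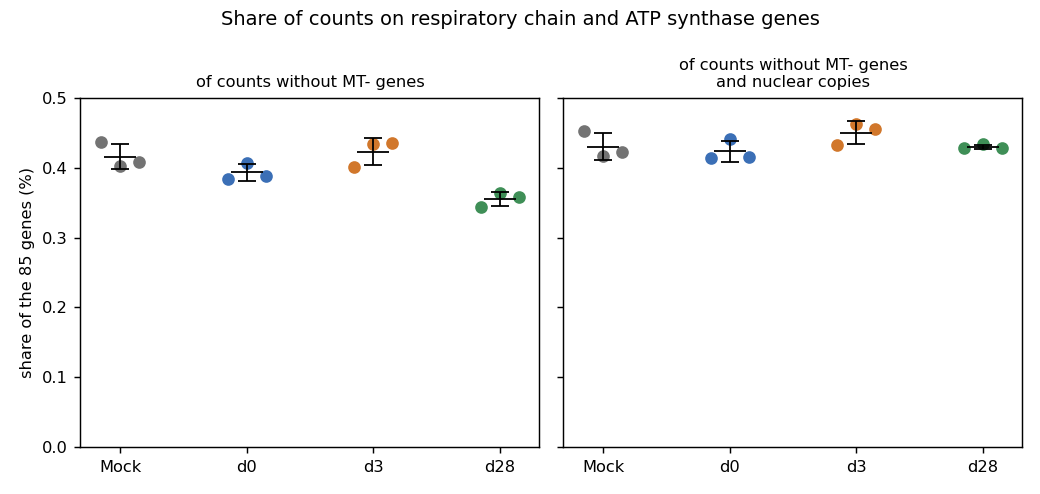
Share of counts on the 85 genes (y axis, percent) in each sample by group (x axis), of counts without MT- genes (left) and of counts without MT- genes and nuclear copies of them (right). Dots are samples, wide bars are group means and error bars are SDs. The d28 dots lie at 0.343% to 0.364% on the left and among the other groups on the right.

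The mitochondrially encoded partners of these proteins moved on a different scale. The 13 subunit genes of mitochondrial DNA had 63.0 to 67.8 counts per count on the 85 nuclear genes in Mock, 142 to 159 in d0, 85.7 to 149 in d3 and 363 to 477 in d28. These counts measure mitochondrial DNA cut by the transposase in the preparation of nuclei, and mitochondrial DNA content and carry-over of mitochondria cannot be told apart.

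Complex IV holds several subunits that exist as a widely used isoform and an isoform restricted to tissues such as heart, muscle, lung or testis. Per kb of gene, the widely used genes were above their restricted partners in all 6 pairs, over the 12 samples. COX4I1 had 2.16 normalized counts per kb and COX4I2 0.184, COX6A1 had 4.51 and COX6A2 0.700, and COX6B1 had 1.65 and COX6B2 0.719. COX7A2 had 1.91 and COX7A1 0.708, COX7B had 1.34 and COX7B2 0.000856, and COX8A had 1.34 and COX8C 0.146. Of the restricted genes only COX6B2 reached the level for testing. It had 2.77 to 6.07 normalized counts in Mock, d0 and d28 and 0.793, 0 and 4.02 in d3, a difference that was not past the threshold (adjusted p = 0.505 at d3 against Mock). The other 5 had 2 to 17 counts in all 12 samples together.

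**Figure D4:**
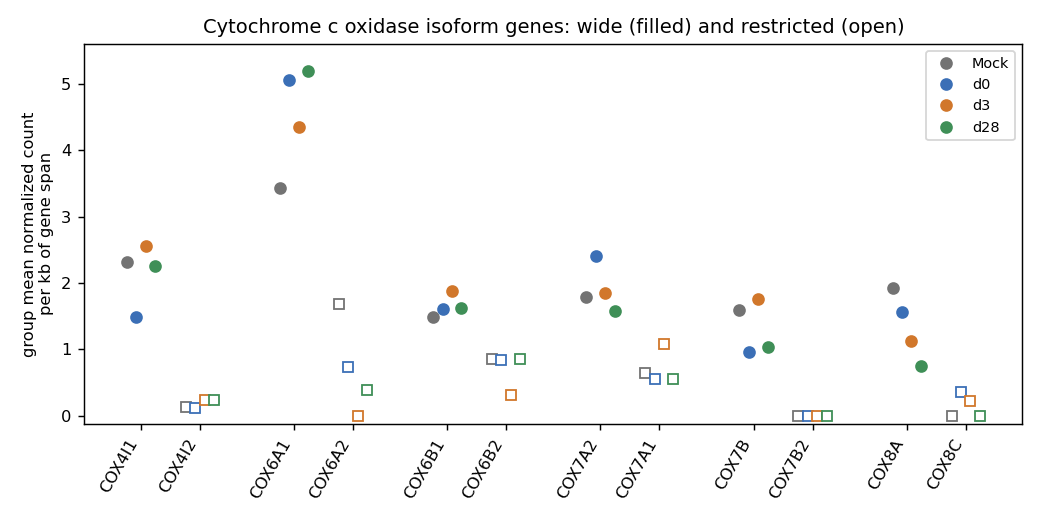
Group means of normalized counts per kb of gene span (y axis) for 6 pairs of complex IV isoform genes (x axis), in Mock, d0, d3 and d28. Filled dots are the widely used isoforms and open squares the restricted ones. The widely used gene is higher than its partner in each pair, as in COX4I1 (2.16 over all samples) and COX4I2 (0.184).

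The sixth gene below the level for testing was UQCR11, a small subunit of complex III, with 15 counts in all 12 samples. COX8A, NDUFA7 and NDUFB7 were tested at low values. COX8A, the widely used subunit VIII of complex IV, had 0 to 7.38 normalized counts in Mock, 1.21 to 5.08 in d0, 0.867 to 3.22 in d3 and 0.722 to 2.14 in d28, with overlap between all groups. NDUFA7 had 0 to 5.77 in all 12 samples. NDUFB7, a complex I subunit, had 5.91, 6.28 and 13.7 in Mock and 3.81 to 12.9 in the other samples, again with overlap. UQCRHL, an intronless copy of UQCRH, and the read-through entry ATP5MF-PTCD1 are uncertain, since reads of near-identical or overlapping genes cannot be assigned with certainty.

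Partner genes outside the 85 were taken from a fixed list. None of the 4 genes of complex II, which feeds electrons from succinate into the chain, passed the adjusted threshold in any comparison, and neither did cytochrome c1 and cytochrome c (2 genes), the assembly factors of complex I (16), complex II (4), complex III (6) and the ATP synthase (3), or the regulators NRF1, YY1, SP1, ESRRA, the GABP subunits and the PGC-1 family (10 genes in all). Of the 22 assembly factors of complex IV, 1 was called at d28 against Mock (beside 1.39% of all tested genes), 1 at d3 against d0 (1.23%) and 1 at d28 against d0 (1.18%), the last 2 being the same gene. COX11, which inserts copper into complex IV, rose at d28 against Mock (log2 fold change 0.87, edgeR adjusted p = 0.0403), from 18.8 to 22.6 normalized counts in Mock to 28.8 to 44.1 in d28. COX20, a chaperone of the mitochondrially encoded subunit II, fell at d3 against d0 (-0.59, adjusted p = 0.0214) and at d28 against d0 (-0.60, adjusted p = 0.0228), from 83.8 to 94.1 in d0 to 49.4 to 69.2 in d3 and 52.0 to 70.6 in d28. It did not pass against Mock, where it had 69.4 to 85.5. The calls of COX11 and COX20 were not repeated under the other scalings, filters and tests, or with samples left out. At an unadjusted p below 0.05, 2 of the 10 regulators passed at d0 against Mock (beside 9.54% of all tested genes), 2 at d3 (12.1%) and 4 at d28 (12.9%, 3 higher and 1 lower). Among the later groups, 3 passed at d3 against d0 (12.1%), 1 at d28 against d0 (12.8%) and 2 at d28 against d3 (8.75%). Their median log2 fold changes against Mock were 0.19, 0.23 and 0.30 at d0, d3 and d28, beside 0.015, 0.11 and 0.10 for all tested genes.

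The genes next to NDUFB10 and ATP5PB were examined after these calls were known, since a count per gene can hold reads from the ends of its neighbours. RPS2, a ribosomal protein gene, lies 82 bases past NDUFB10 and had log2 fold changes of 0.74 (SE 0.26, adjusted p = 0.137) at d3 and 0.12 at d28 against Mock. MSRB1, which encodes a methionine sulfoxide reductase and lies 16338 bases before NDUFB10, rose at d3 against Mock (0.89, SE 0.25, adjusted p = 0.0347). Further out, 119330 bases before NDUFB10, FAHD1 was lower at d0 against Mock (-0.93, edgeR adjusted p = 0.0267). It had -0.29 at d3 and -0.64 at d28 against Mock (adjusted p = 0.589 and 0.0911). The calls of MSRB1 and FAHD1 were not repeated under other settings. RPL3L, which lies between MSRB1 and NDUFB10, had 0.055 (SE 0.42). WDR77 lies 207 bases from ATP5PB on the other side of its start, and had 0.33 (SE 0.22) at d3 and -0.19 (SE 0.23) at d28, with adjusted p-values of 0.58 and 0.789. Whether these changes differ from those of NDUFB10 and ATP5PB was not tested.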

How the data were processed

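The authors prepared ATAC-Seq libraries from nuclei and deposited raw counts, one whole number per gene and sample, neither normalized nor pooled. The submitters' processing notes name bcl2fastq, Bowtie2, HTSeq and GRCh38. Versions, read shift, duplicate removal, strand and the counted interval are not given in the sources used here. Entries that join several identifiers (100, none of them a member) were kept as they are. Total counts of 353430 to 3539937 per sample set the precision. The Wilson intervals of shares cover counting error only, and the edgeR intervals also hold the spread between samples.

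The 37 MT- genes were removed, and TMM factors and edgeR 4.0.16 (R 4.3.3) quasi-likelihood F tests were fitted to all 12 samples, on the 27543 genes whose normalized counts averaged above 2 in any group, with Benjamini-Hochberg adjustment over all of them and a threshold of 0.05. DESeq2 1.42.0, RLE factors, library sizes only, MT- genes kept, 375 nuclear copies also removed, other filters, the 6 samples of a comparison alone, a replicate block and leaving out each sample were alternatives. Procedures were tested on simulated data. Figures were drawn with matplotlib. RefSeq (GRCh38.p14) gave positions and promoters; 4 of the 85 members were matched by an older symbol.

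The members and lists were chosen with earlier results of these data known. Named were members past the threshold, the 5 largest changes in each direction per day against Mock at 20 or more normalized counts, the 5 smallest p-values among 4 groups, the 5 highest and 5 lowest levels, complex IV isoform pairs, NDUFB7, NDUFA1 and COX8A, and list genes past the threshold. Other genes were named after their values were seen. Groups and replicate numbers come from the labels. An RNA purification step also named in the labels was disregarded. Replicates are called biological in the paper's account of its experiments; no pair agreed within sampling noise (chi-square per degree of freedom from 1.06 to 1.38). A gene of the check of the cell line label is not reported here.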

Additional observations from a re-analysis of the deposited data

How the results depend on the processing

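Counts of members called and their medians moved with the scaling, the test, the filter and the samples included. With RLE factors, library sizes only and DESeq2, 1 member was called at d3 against Mock in each, and 0 at d3 against d0. At d28 against Mock the count was 0 with RLE factors, DESeq2 and no filter on low counts and 4 with library sizes only, which also called 2 members at d28 against d0, 3 at d28 against d3 and 4 in the test of 4 groups, where RLE factors, DESeq2 and no filter called 1. The median log2 fold change of the members at d3 against Mock was 0.050 with RLE factors, 0.053 with DESeq2 and 0.017 with library sizes only. At d3 against d0 it was 0.11 with RLE factors and DESeq2. At d28 against Mock it was 0.014 with RLE factors and -0.23 with library sizes only, which gave -0.15 at d28 against d0 and -0.25 at d28 against d3. The cause was not tested.

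When each of the 12 samples was left out in turn, the counts of members called ranged from 0 to 1 at d0, from 1 to 2 at d3 and from 0 to 1 at d28 against Mock, from 0 to 1 at d3 against d0 and at d28 against d0, and from 1 to 2 in the test of 4 groups. The medians ranged from -0.10 to 0.056 (d0 against Mock), 0.15 to 0.27 (d3), 0.025 to 0.18 (d28), 0.16 to 0.31 (d3 against d0), -0.011 to 0.16 (d28 against d0) and -0.12 to -0.061 (d28 against d3). ATP5MC3 ranged from -0.81 to 0.021 at d0 and from -0.45 to 0.39 at d3 against Mock, and NDUFS3 from -0.68 to 0.019 at d28.

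The correlation of deviations between same-numbered samples, over 8232 genes, was between -0.0729 and 0.0352 on average per comparison. For single pairs it was between -0.154 and 0.087. Counting error at this depth weakens such correlations, so whether same-numbered samples share an origin cannot be read from them. The replicate block changed no call of a member; with it NDUFB10 stood at 1.12 at d3 against Mock (adjusted p = 1.15e-05) and ATP5PB at 0.67 (adjusted p = 0.0164). At this depth, members at 10 to 20 normalized counts had a median standard error of 0.34 at d3 against Mock.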
